A study of Rattus norvegicus with 8 samples.

Results

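The 10 genes described here encode integrin chains and the partners with which leukocytes hold on to matrix and to other cells: Itgam, Itgal, Itgb2, Itga4, Itgb1, Itga6, Itgb3, Selplg, Icam1 and Cd44. They were chosen with earlier results of these data known, taken by symbol from the gene names of the array, and found on 16 of 45514 distinct probes. Of the 10 genes, 9 were well above background on all arrays of at least 1 group and stood among 15651 genes tested. The cells were NR8383, a line established by lavage of a normal rat lung and labelled as alveolar macrophages, which grows partly attached and partly floating. P200 denotes cells at passage 200 and P20 cells at passage 20, untreated in both groups and differing by the labels only in passage number, with 4 biological replicates each. It is 1 cell line, and nothing in the labels says whether the replicates came from separately passaged cultures, so p-values measure the spread between these 8 samples. Total RNA was labelled with Cy3 and hybridised to single-colour Agilent rat arrays.

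Integrins are pairs of 1 alpha and 1 beta chain that span the membrane, bind ligand outside the cell and connect to actin inside it through talin and kindlin. Macrophages and other leukocytes are known for the beta 2 family, in which Itgb2 pairs with Itgam to form the complement receptor Mac-1 or with Itgal to form LFA-1, the receptor for the intercellular adhesion molecule Icam1. Itgb1 pairs with many alpha chains, among them the fibronectin and Vcam1 receptor chain Itga4 and the laminin receptor chain Itga6. Selplg carries the sugars that selectins bind, and Cd44 is the main receptor for hyaluronan.

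At passage 200 the Mac-1 alpha chain Itgam was lower and the laminin receptor chain Itga6 was higher than at passage 20. Itgam was called on its brighter probe only, and Itga6 on both of its probes. The beta chains Itgb2 and Itgb1, which pair with Itgam and Itga6, did not pass the test. Neither did Itga4, Itgb3, Selplg, Icam1 or the brightest Cd44 probe, while the dimmest Cd44 probe was called lower. Itgal was near background in both groups. Of the 9 members tested with limma (Benjamini-Hochberg adjusted p under 0.05 over all genes), 1 was called higher, where 5.99% of all genes were, and 1 lower, where 5.53% of all genes were. In either direction 11.5% of all genes were called. The median log2 change of the 9 members was -0.1, beside -0.00031 over all genes.

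**Figure D1:**
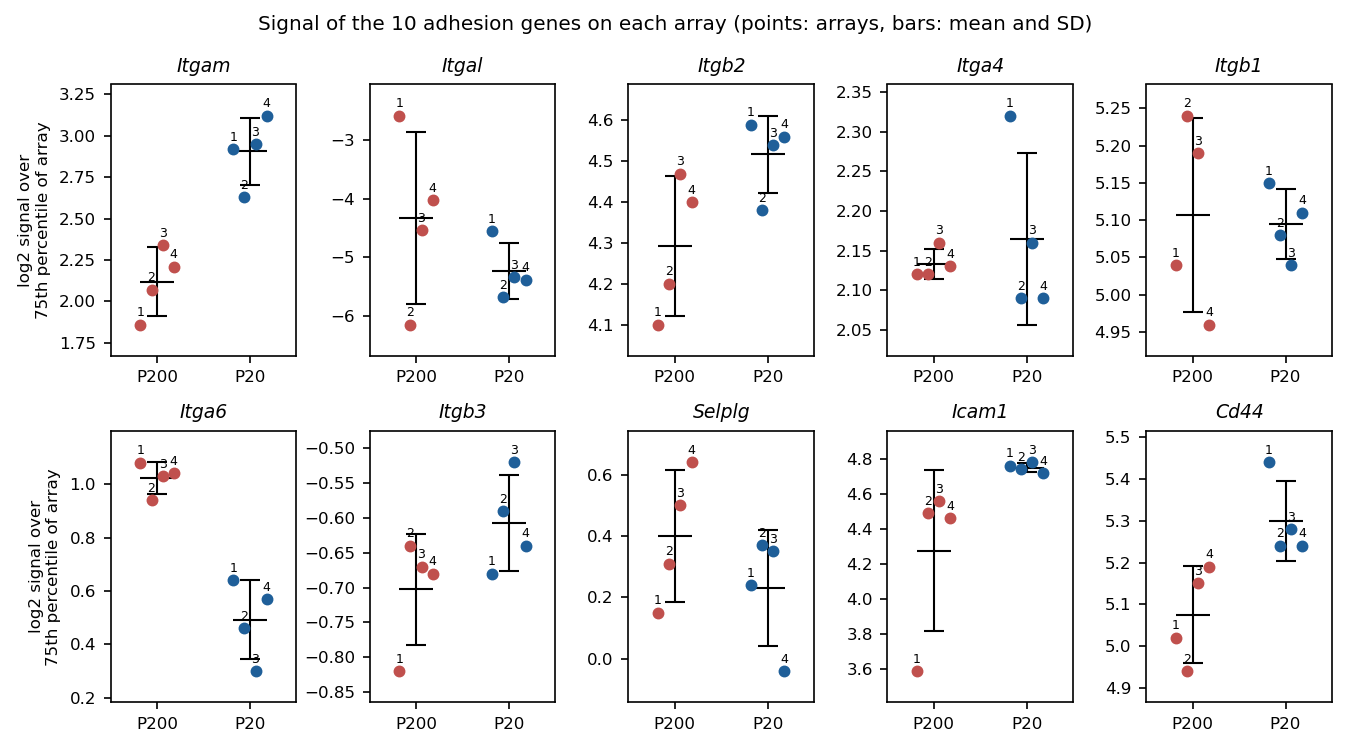
Log2 signal of the brightest probe of each of the 10 members over the 75th percentile of the array (vertical axis, its own range in each panel), for P200 (red) and P20 (blue). Numbered points are the arrays by replicate, and bars are the mean and SD of 4 arrays; Itgam separates with P200 low (1.86 to 2.34 against 2.63 to 3.12), Itga6 with P200 high (0.94 to 1.08 against 0.30 to 0.64), and for Itgal only P200 replicate 1 was well above background.

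Levels are given as log2 of the processed signal over the 75th percentile of the array, so that 0 is the signal of the probe at that percentile. Levels of different probes are not comparable with each other, since each probe has its own response. Per array, 51.02% to 54.47% of spots stood well above background, and none was saturated. Pearson's r, taken across genes that are no replicates of each other, was 0.9883 to 0.9966 between P200 arrays, 0.9926 to 0.9958 between P20 arrays and 0.9766 to 0.9829 between the groups. The 8 arrays lay on 1 slide in 2 rows: row 1 held P200 replicates 2, 3 and 4 with P20 replicate 1, and row 2 held P200 replicate 1 with P20 replicates 2, 3 and 4. These are arrays of whole cultures, so fewer cells that carry a transcript and less of it per cell cannot be told apart.

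Of 12 macrophage markers, 10 were well above background on all P200 and all P20 arrays, among them Cd68, Csf1r, Ptprc and Spi1, while Adgre1 and Cd163 were above it on none. Their summed signal, in units of the 75th percentile of the array, was 1180 to 1220 at P200 and 1170 to 1370 at P20. Such a sum mostly reflects its brightest probes. Among the macrophage markers Cd14 was called lower at P200 (-0.91, limma, adjusted p = 0.00258), and no other was called. Of 10 alveolar macrophage markers on the array, 6 were above background throughout both groups. Their sum was 95.4 to 146 at P200 and 146 to 154 at P20, and Marco was above background on 1 P200 array and no P20 array. Siglec5 (-1.69, limma, adjusted p = 1.85e-05) and Siglec1 (-0.56, adjusted p = 0.0348) were lower at P200. Csf2rb was higher (0.57, adjusted p = 0.00733), and the other alveolar markers tested were not called. Of 10 lung epithelial markers, 0 were detected on all P200 arrays and 1 on all P20 arrays, with sums of 0.214 to 0.37 and 0.309 to 0.553. That 1 was Cldn18, above background on 1 P200 array. Fibroblast markers were detected on all arrays for 3 of 8 genes in both groups, with sums of 7.45 to 8.72 at P200 and 6.65 to 7.63 at P20. Endothelial markers, which include Pecam1 and Eng, were detected throughout for 5 of 7 genes at P200 and 4 at P20. They summed to 16.4 to 20 at P200 and 14.7 to 17.4 at P20. Flt1 was above background on all 4 P200 arrays and on 1 P20 array. Lymphocyte markers summed to 1.39 to 2.19 at P200 and 0.863 to 1.8 at P20, with 2 of 10 detected throughout in each group. Of these, Cd4 was higher at P200 (1.2, limma, adjusted p = 0.00409) and Cd3d was not called. Markers of platelets and megakaryocytes summed to 0.179 to 0.348 at P200 and 0.554 to 0.576 at P20, with 0 of 5 and 1 of 5 detected throughout. That 1 was Pf4, above background on no P200 array.

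Itgam, also called CD11b, recognises the complement fragment iC3b, fibrinogen and Icam1 when it is paired with Itgb2. The log2 level of its brighter probe was 1.86, 2.07, 2.34 and 2.21 in P200 replicates 1 to 4, against 2.92, 2.63, 2.95 and 3.12 in P20 replicates 1 to 4. Every P200 array lay below every P20 array. The means were 2.12 ± 0.21 at P200 and 2.91 ± 0.20 at P20 (SD, n = 4 each), a log2 change of -0.78 ± 0.13 (SE, 95% interval -1.08 to -0.49) or 1.72-fold lower (limma, adjusted p = 0.00515). With the slide row as a block the change was -0.88 (limma, adjusted p = 0.00982), and within rows 1 and 2 it was -0.71 and -1.04. Markers of neutrophils and mast cells, some of which also carry Itgam, summed to 3.43 to 4.36 at P200 and 7.62 to 8.69 at P20. Of the 8 genes, 1, the antimicrobial peptide Camp, was detected throughout in each group. Camp was called lower at P200 (-1.13, limma, adjusted p = 5.16e-05), and no other gene of this list was tested. The neutrophil markers Mpo, Elane and Csf3r and the mast cell markers Kit and Fcer1a were well above background on no array, while the mast cell markers Mcpt1 and Cpa3 were above it on 2 and 1 P200 arrays and on 2 and 0 P20 arrays.

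The second Itgam probe was dimmer and did not part the groups. Its log2 level was 0.34, 0.67, 0.98 and 0.77 at P200 and 1.32, 1.11, 0.39 and 1.79 at P20, where replicate 3 lay among the P200 arrays. Its change was -0.46 ± 0.27 (SE, limma over probes, adjusted p = 0.369), and with the mean of both probes as the value of the gene the fall of Itgam no longer passed the test (-0.62, adjusted p = 0.0591). The brighter probe was designed on a predicted transcript and maps to chromosome 1, 187385777 to 187385836 on the rn4 assembly, per the file headers. The dimmer one maps to chr1:187385032-187385565, a span of 534 bases for a probe of 60, so it crosses at least 1 intron. By the tail motif it encodes, it lies near the end of the coding sequence, and the Itgal probe holds the same motif of its own gene, at chr1:186594579-186597988 on rn4 (a span of 3410 bases). Both probes are shown because they are what was measured at the cytoplasmic tail of the chains, and the capitals mark the codons of the conserved membrane-proximal motif of integrin alpha tails:
Itgam: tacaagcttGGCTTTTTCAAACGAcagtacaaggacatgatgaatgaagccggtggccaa
Itgal: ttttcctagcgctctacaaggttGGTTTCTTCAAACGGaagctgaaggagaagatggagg
The capitals are identical at 12 of 15 bases.

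Itgal, also called CD11a, was not measurable on most arrays. Its log2 level was -2.58, -6.15, -4.54 and -4.02 in P200 replicates 1 to 4 and -4.55, -5.68, -5.34 and -5.38 in P20 replicates 1 to 4. It was well above background on 1 P200 array (replicate 1, a processed signal of 61.74) and on no P20 array, where the processed signal ran from 6.18 to 14.03. It was therefore not tested, and no fold is given.

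Itgb2, also called CD18, is the chain without which neither Mac-1 nor LFA-1 reaches the cell surface. Its log2 level was 4.10, 4.20, 4.47 and 4.40 at P200 and 4.59, 4.38, 4.54 and 4.56 at P20, on a probe at chromosome 20, 11446736 to 11446795. The groups overlapped, with P200 replicates 3 and 4 above P20 replicate 2. The change was -0.23 ± 0.10 (SE, 95% interval -0.44 to -0.01), which did not pass the test over all genes (limma, adjusted p = 0.192). Within rows 1 and 2 it was -0.23 and -0.40.

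The regulatory region of Itgam is shown because it is the member that fell and because PU.1, the product of Spi1, is known as a driver of this gene in myeloid cells. RefSeq promoter sequences (assembly GRCr8, windows of 300 bases around the gene start) were found for 5 of the 10 members. The stretch upstream of the earliest annotated start of Itgam is chr1:192089342-192089495 on GRCr8, plus strand, with the PU.1 core letters GAGGAA in capitals:
Itgam promoter: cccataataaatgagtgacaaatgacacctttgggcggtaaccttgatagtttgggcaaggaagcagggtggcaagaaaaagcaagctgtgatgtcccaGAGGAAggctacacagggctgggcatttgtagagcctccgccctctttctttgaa
On both strands of the whole window, GAGGAA had 2 matches in Itgam, 1 in Itgb1 and 0 in Itga4, Icam1 and Cd44. It was present in 27.6% of 33469 promoters of 300 bases, and a match describes the letters only.

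Itga6 forms the laminin receptors of many cell types, with Itgb1 or with Itgb4. The log2 level of its brighter probe was 1.08, 0.94, 1.03 and 1.04 in P200 replicates 1 to 4, against 0.64, 0.46, 0.30 and 0.57 in P20 replicates 1 to 4. All P200 arrays lay above all P20 arrays and varied less among themselves. The means were 1.02 ± 0.06 at P200 and 0.49 ± 0.15 at P20 (SD, n = 4 each), a change of 0.53 ± 0.08 (SE, 95% interval 0.34 to 0.72) or 1.45-fold higher (limma, adjusted p = 0.00354). With the slide row as a block the change was 0.50 (limma, adjusted p = 0.0211), and within rows 1 and 2 it was 0.37 and 0.64. When arrays were centred on their median instead of the 75th percentile, Itga6 kept a change of 0.50 but was not called (limma, adjusted p = 0.717).

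The second Itga6 probe showed the same direction. Its log2 level was -0.92, -1.20, -1.17 and -1.18 at P200 and -1.70, -2.01, -1.64 and -1.73 at P20, without overlap. The change was 0.65 ± 0.10 (SE), 1.57-fold higher (limma over probes, adjusted p = 0.00372). Of all 19458 probes 5.55% were called higher and 5.22% lower, 10.8% in either direction. The brighter probe maps to chromosome 3, 54274884 to 54274943, and the dimmer to chr3:54263800-54263859 on rn4, plus strand. The dimmer probe is shown because it carries coding sequence of the member that rose, and the capitals mark the codons of the run of basic residues at which the alpha 6 precursor is cleaved:
Itga6: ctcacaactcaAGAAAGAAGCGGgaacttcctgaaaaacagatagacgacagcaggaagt

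Itgb1 did not pass the test on either of its probes. The brighter, spotted 10 times per array at chromosome 19, 58600126 to 58600185, had a log2 level of 5.04, 5.24, 5.19 and 4.96 at P200 and 5.15, 5.08, 5.04 and 5.11 at P20. The highest and the lowest array were both P200 arrays, so the P20 values lay inside the P200 range. The change was 0.01 ± 0.08 (SE, 95% interval -0.16 to 0.18; limma, adjusted p = 0.946), and the sign was not stable between settings. The second probe changed by -0.01 ± 0.08 (limma over probes, adjusted p = 0.944). The spots of the brighter probe differed by an SD of 0.048 to 0.114 within an array, and its arrays by an SD of 0.13 at P200 and 0.05 at P20.

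Itga4, the alpha chain of VLA-4, had a log2 level of 2.12, 2.12, 2.16 and 2.13 at P200 and 2.32, 2.09, 2.16 and 2.09 at P20. The P200 arrays all lay within the P20 range, and P20 replicate 1 was the highest of the 8. The change was -0.03 ± 0.07 (SE, 95% interval -0.19 to 0.12; limma, adjusted p = 0.82), with the probe at chromosome 3, 62097157 to 62097216. Itga4 and Itga6 share Itgb1 as a partner, and only the second of them was called.

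Itgb3, the beta chain of the vitronectin receptor when it pairs with Itgav and of the platelet fibrinogen receptor when it pairs with Itga2b, was at -0.82, -0.64, -0.67 and -0.68 at P200 and -0.68, -0.59, -0.52 and -0.64 at P20. The groups overlapped, and P200 replicate 1 was the lowest. The change was -0.10 ± 0.07 (SE, 95% interval -0.25 to 0.05; limma, adjusted p = 0.436), and on the second probe it was -0.26 ± 0.13 (limma over probes, adjusted p = 0.273). The files give no rn4 position for the brighter probe. It is shown as the beta chain counterpart of the alpha tails above, with the codons of a tail motif to which talin is known to bind in capitals:
Itgb3: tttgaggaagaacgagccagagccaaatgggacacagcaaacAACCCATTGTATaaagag

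**Figure D2:**
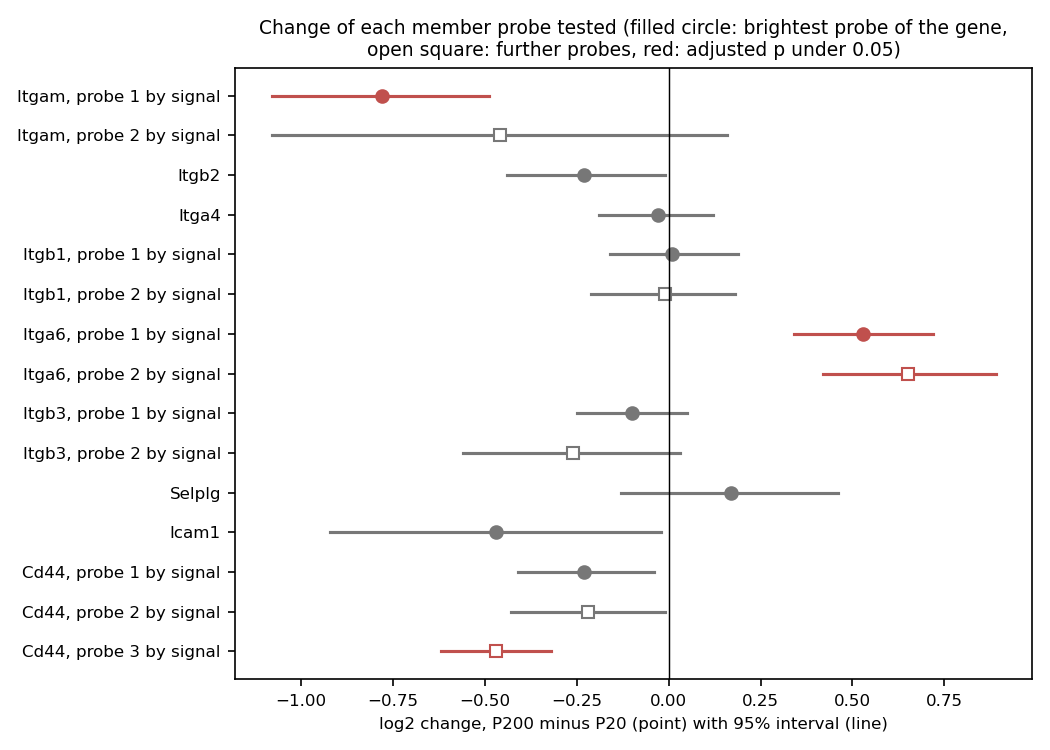
Log2 change, P200 minus P20 (horizontal axis), of each member probe tested, with lines for the 95% interval of the limma fit over probes, filled circles for the brightest probe of a gene, open squares for its further probes and red for an adjusted p under 0.05. Both Itga6 probes are red to the right of 0 (0.53 and 0.65), while 1 Itgam probe (-0.78) and 1 Cd44 probe (-0.47) are red to the left and the other probes of these genes are not.

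Because Itgam and Itgb2 are chains of 1 receptor, the log2 level of Itgam minus that of Itgb2 was also compared, a difference that is the same under any centring of the arrays. Its absolute size depends on the probes, so only its change can be read. It was -2.24, -2.12, -2.13 and -2.18 at P200 and -1.67, -1.75, -1.59 and -1.44 at P20, a shift of -0.56 (exact two-sided permutation test, p = 0.0286, adjusted p = 0.0381 over 4 pairs). All P200 arrays lay below all P20 arrays. This shows unequal change of the probes used, of which that of Itgam is its brighter one, and not that Itgb2 was constant. The smallest p that 4 against 4 arrays can give is 0.0286.

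The Itga6 minus Itgb1 difference was -3.95, -4.30, -4.16 and -3.92 at P200 and -4.51, -4.61, -4.74 and -4.54 at P20. It shifted by 0.52 (exact permutation test, p = 0.0286, adjusted p = 0.0381), again without overlap. The Itga4 minus Itga6 difference averaged 1.11 ± 0.06 at P200 and 1.67 ± 0.14 at P20 (SD, n = 4 each), a shift of -0.57 (exact permutation test, p = 0.0286, adjusted p = 0.0381). The Itga4 minus Itgb1 difference averaged -2.98 ± 0.12 at P200 and -2.93 ± 0.09 at P20, and its groups overlapped (shift -0.05, exact permutation test, p = 0.543, adjusted p = 0.543). With the mean of all probes of a gene in place of the brightest, Itgam minus Itgb2 shrank to -0.40 (exact permutation test, adjusted p = 0.114). The shifts of Itga6 minus Itgb1 and Itga4 minus Itga6 were larger than before, at 0.59 and -0.63, but their adjusted p was 0.0571, since the adjustment over the 4 pairs depends on how many of them reach the smallest p. Of 6 pairs planned, the 2 with Itgal were not tested because Itgal was near background. The adjustment was planned over 6 pairs, and counting the 2 untested ones would raise the adjusted p of 0.0381 past the threshold of 0.05. The tested pairs share chains and arrays and are not independent of each other or of the tests of the single genes.

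**Figure D3:**
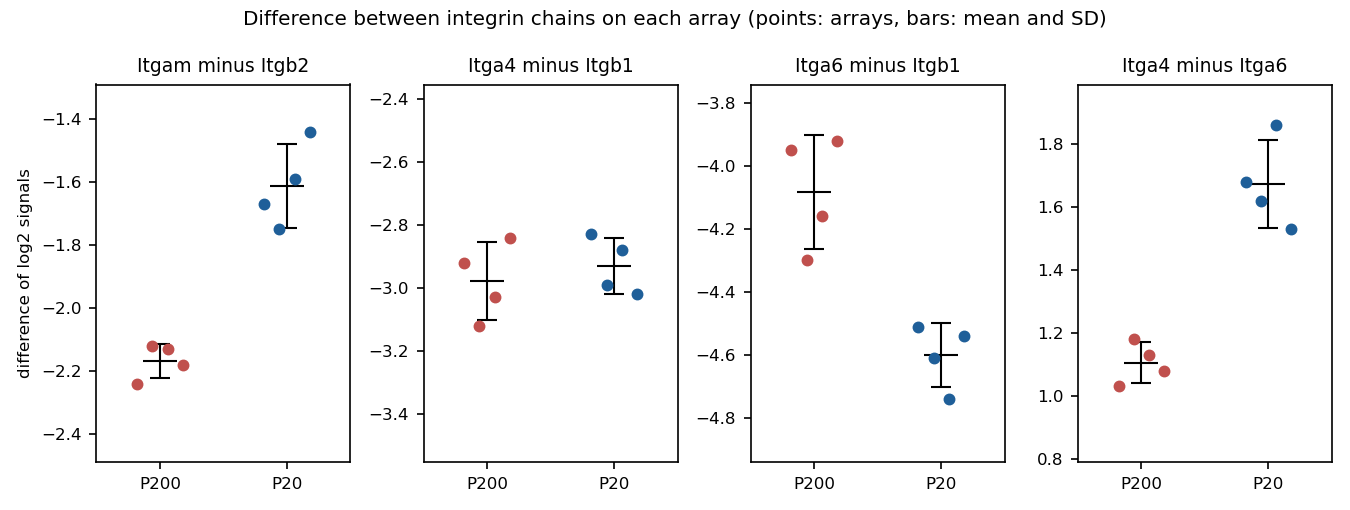
Difference in log2 signal between the chains of each tested pair (vertical axis, each panel with its own range), with 1 point per array, P200 in red left of P20 in blue, and bars for the mean and SD of 4 arrays. Itgam minus Itgb2 is lower on every P200 array (-2.24 to -2.12, against -1.75 to -1.44), Itga6 minus Itgb1 is higher, Itga4 minus Itga6 is lower, and Itga4 minus Itgb1 overlaps.

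Icam1, the endothelial and macrophage ligand of LFA-1 and Mac-1, had a log2 level of 3.59, 4.49, 4.56 and 4.46 in P200 replicates 1 to 4, against 4.76, 4.74, 4.78 and 4.72 in P20 replicates 1 to 4. All P200 arrays lay below all P20 arrays, and P200 replicate 1 stood far below the other three. The SD was 0.46 at P200 and 0.03 at P20, and the change of -0.47 ± 0.20 (SE, 95% interval -0.93 to -0.02) did not pass the test (limma, adjusted p = 0.187). Without P200 replicate 1 the change was smaller, -0.25, and passed it (limma, adjusted p = 0.0397). With the slide row as a block it was -0.71 (limma, adjusted p = 0.0514), and within rows 1 and 2 it was -0.26 and -1.16. The probe lies at chromosome 8, 20051730 to 20051789 on rn4.

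Among all genes, 19.6% had groups that did not overlap, 9.49% with P200 above and 10.1% with P200 below. Among the 9 members there was 1 with P200 above, Itga6, and there were 3 with P200 below, Itgam, Icam1 and Cd44. Icam1 is a well-known target of NF-kappaB, and its promoter is shown for the letters of a kappaB site. The stretch before the earliest RefSeq start is chr8:27829595-27829687 on GRCr8, plus strand, with GGAANTTCC in capitals:
Icam1 promoter: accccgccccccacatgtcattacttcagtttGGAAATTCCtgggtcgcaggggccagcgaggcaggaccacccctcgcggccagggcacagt
GGAANTTCC, searched on both strands, was found once in the Icam1 window, in none of the windows of Itgam, Itga4, Itgb1 and Cd44, and in 0.872% of all 33469 promoters.

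Cd44 gave different calls on its 3 probes. The brightest, spotted 10 times per array at chromosome 3, 88023005 to 88023064, had a log2 level of 5.02, 4.94, 5.15 and 5.19 at P200 and 5.44, 5.24, 5.28 and 5.24 at P20. The groups did not overlap, but P200 replicate 4 and the lowest P20 arrays were close, and the change of -0.23 ± 0.08 (SE, 95% interval -0.41 to -0.04) did not pass the test (limma, adjusted p = 0.119). The second probe, at 88023370 to 88023429 on the same chromosome, changed by a similar -0.22 ± 0.09 (limma over probes, adjusted p = 0.183).

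The third Cd44 probe was designed on a predicted transcript variant and lies at chromosome 3, 88022292 to 88022351. Its log2 level was 0.58, 0.61, 0.47 and 0.55 at P200 and 1.06, 1.05, 1.09 and 0.91 at P20, with a clear gap between the groups. It was 1.39-fold lower at P200 (-0.47 ± 0.07 SE, limma over probes, adjusted p = 0.002). Whether the third probe changed differently from the other Cd44 probes was not tested. With the mean of the 3 probes as the value of the gene, Cd44 changed by -0.31 and was called lower (limma, adjusted p = 0.02).

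Selplg, the P-selectin ligand PSGL-1 that lets leukocytes roll on activated endothelium, had a log2 level of 0.15, 0.31, 0.50 and 0.64 at P200 and 0.24, 0.37, 0.35 and -0.04 at P20. The groups overlapped widely, with the lowest array at P20 and the highest at P200. The change was 0.17 ± 0.13 (SE, 95% interval -0.13 to 0.46; limma, adjusted p = 0.503), and within rows 1 and 2 it was 0.24 and -0.08. Its single probe lies at chromosome 12, 43843376 to 43843435 on rn4.

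The rest of the adhesion machinery was read from 8 further lists with 124 entries, of which 117 were on the array and 74 were tested. Of these, 7 were called higher and 3 lower, against 5.99% and 5.53% of all genes, and their median change was 0.0. Among 12 other alpha chains on the array, 3 were tested and none passed: Itgae, the partner of Itgb7, had the smallest p, with a change of 0.22 ± 0.14 (limma, adjusted p = 0.426). Of 5 other beta chains, Itgb4 was the only one tested, at 0.18 ± 0.06 (limma, adjusted p = 0.105), with all P200 arrays above all P20 arrays. Itgb7 was above background on 1 P200 array and Itgb8 on 1 P20 array.

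Of 23 tested proteins that activate integrins or tie them to actin, 3 were higher and 1 was lower, beside 5.99% and 5.53% of all genes. The other 19 were not called, and the median change of the 23 was -0.01. Sharpin, known in mouse and human cells as an inhibitor of integrin activation and as a subunit of a ubiquitin ligase, was at 3.93, 3.78, 3.92 and 4.10 at P200 and 3.18, 3.17, 3.18 and 3.20 at P20. It rose 1.68-fold (0.75 ± 0.07 SE, limma, adjusted p = 0.00024), without overlap and with P20 arrays nearly equal. Parvb, a parvin that links the integrin-linked kinase to actin, rose by 0.36 ± 0.06 (limma, adjusted p = 0.00692), and Parvg, the parvin of blood cells, picked once its value was known, by 0.27 ± 0.07 (limma, adjusted p = 0.0378). All 3 risers have their probes on chromosome 7, where 28.4% of 936 genes were higher at P200 and 3.74% lower. The part of chromosome 7 in their rise was not tested. Lims1, the adaptor PINCH in the same complex as the parvins, was lower (-0.38 ± 0.07, limma, adjusted p = 0.00933). With arrays centred on their median none of these 4 genes was called, at changes of 0.71 for Sharpin, 0.32 for Parvb, 0.24 for Parvg and -0.41 for Lims1. Sharpin was called in 18 of 19 settings, Parvb and Lims1 in 17 each and Parvg in 9. Parvg was not called with the slide row as a block (limma, adjusted p = 0.118).

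Of 13 tested kinases and their adaptors, 1 was lower, beside 5.53% of all genes, 12 were not called and the median change was -0.09. The call was Src, on a probe above background on all 4 P20 arrays and on no P200 array. Its log2 level was -6.11, -5.83, -5.82 and -5.52 at P200 and -2.74, -2.94, -3.30 and -3.06 at P20. The fitted fall passed the test (limma, adjusted p = 4.11e-06). The probe entered the test only through the P20 arrays, where it was high, so this p-value is no independent support. With probes required to be above background on all 8 arrays, Src was not tested and the list had 0 calls. On the processed signal the P20 mean of Src lay 2.91-fold above the detection floor of the P200 arrays, a log2 difference of 1.54. That floor is, on each P200 array, the lowest signal among probes well above background, or the probe's own signal if higher. It depends on the background subtraction, so 2.91-fold is no lower bound on the fall, and other settings gave smaller changes. The log2 change was -0.57 with normexp and quantile normalization and -0.63 with the series matrix values, both still called. The other Src probes were above background on no array, so the fall rests on 1 probe.

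Of 8 tested immunoglobulin adhesion molecules and ligands, 1 was higher and 1 was lower, beside 5.99% and 5.53% of all genes. The other 6 were not called, and the median change was 0.05. Icam5, known as a neuronal relative of Icam1 whose probe lies near that of Icam1 on chromosome 8 (20062041 to 20062099), was at -1.76, -1.88, -2.03 and -1.94 at P200 and -2.74, -2.82, -3.21 and -3.04 at P20. It rose by 1.05 ± 0.11 (SE, limma, adjusted p = 0.000383), with all P200 arrays above all P20 arrays. The rise was smaller but still called with normexp and quantile normalization (0.48) and with the series matrix values (0.60). Cd47, the ligand of the phagocytosis-inhibiting receptor SIRP alpha and a partner of Itgb3, was lower by the test (-0.30 ± 0.07, limma, adjusted p = 0.0266), while its other 2 probes, at -0.16 and -0.22, were not called. The call of Cd47 held in 9 of 19 settings. Vcam1, the cellular ligand of the Itga4 receptor, was above background on no array.

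Of 9 tested selectins and makers of selectin ligand sugars, 0 passed limma's test, beside 11.5% of all genes called in either direction. Their median change was -0.01. The smallest p was that of Fut7, the fucosyltransferase that completes the sugar on Selplg, at -0.67 ± 0.30 (limma, adjusted p = 0.222). P200 replicate 1 was its lowest array, at -3.31, and without it the change was -0.34. Sele and Selp, selectins of endothelium and platelets, were above background on no array. Of 10 tested genes that make, bind or degrade hyaluronan or tie Cd44 to the cytoskeleton, 0 passed limma's test, beside 11.5% of all genes. The smallest p among them was that of the hyaluronan synthase Has1, at -0.28 ± 0.08 (limma, adjusted p = 0.0698), and the median was 0.04.

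Of 7 tested tetraspanins, membrane proteins that hold integrins in clusters, 3 were higher, beside 5.99% of all genes. The other 4 were not called, and the median change was 0.2. Cd9 rose by 0.41 ± 0.10 (SE, limma, adjusted p = 0.0346) and Cd81 by 0.33 ± 0.09 (adjusted p = 0.0463), both without overlap between the groups. Cd82, picked once its value was known, rose by 0.28 ± 0.08 (limma, adjusted p = 0.0493). All 3 calls were lost with the slide row as a block (limma, adjusted p = 0.137 for Cd9, 0.171 for Cd81 and 0.143 for Cd82). Of 19 settings, Cd9 was called in 9, Cd81 in 7 and Cd82 in 5.

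**Figure D4:**
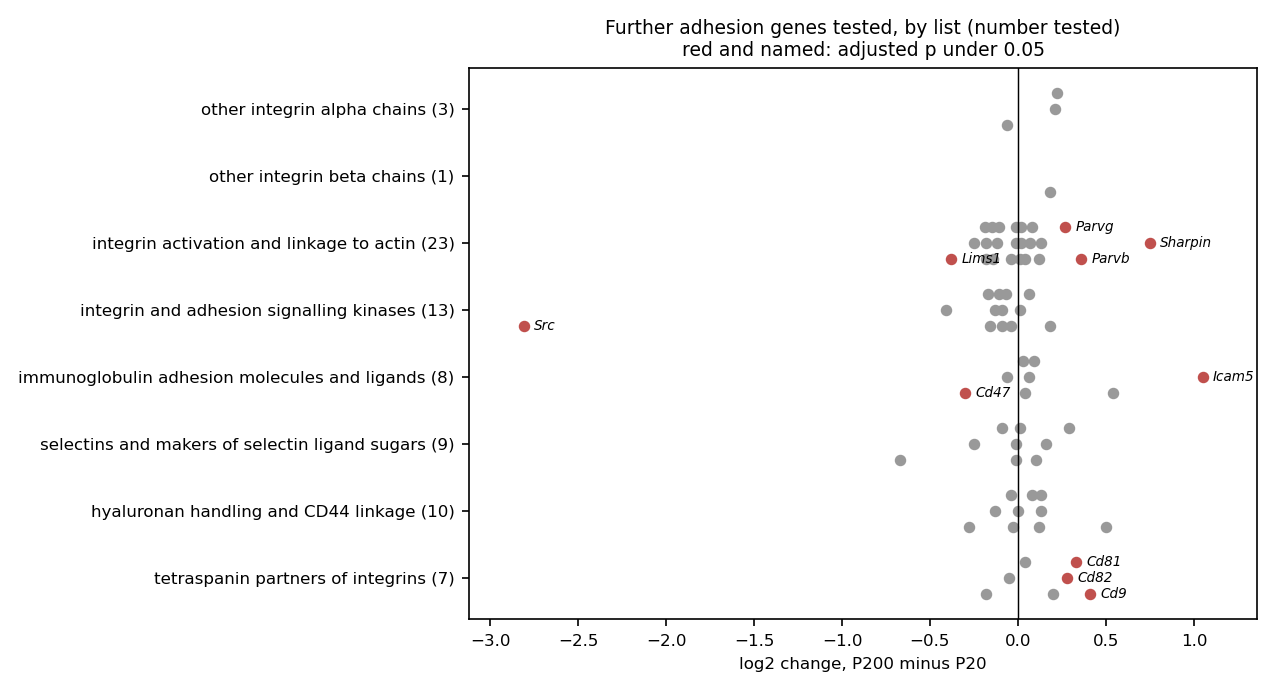
Log2 change, P200 minus P20 (horizontal axis), of each tested gene of the 8 further adhesion lists, with the number tested in brackets, 1 point per gene and red, named points where the adjusted p was under 0.05; height within a list only keeps points apart. Most points lie near 0, with Icam5 (1.05) and Sharpin (0.75) to the right and Src far to the left, where its fitted value is no measured fold because it was not above background at P200.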

How the data were processed

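Single-colour (Cy3) Agilent rat arrays of NR8383 cells were analysed, 4 at P200 and 4 at P20. The deposited scanner files hold spot intensity on a linear scale, read with Agilent Feature Extraction 11.0.1.1 per the submitters' processing notes; per the file headers it subtracts background and removes spatial trends within an array. The arrays had not been scaled to each other. The deposited series matrix, also intensity, equals the raw spot medians; its column medians are 63.0, 71.0, 68.0 and 82.0 for P200 columns 1 to 4 and 64.5, 68.0, 75.0 and 82.5 for P20. Its scale is linear and uncentred, and its P200 columns 1, 2, 3 and 4 hold the arrays numbered 2, 3, 4 and 1 in the scanner files, whose numbers are used here.

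Of 62976 spots per array, 4259 controls were left out, as were outlier spots; spots of a probe were averaged, and 84 of 45598 probes without a usable spot were dropped. The 75th percentile over the probes was subtracted from log2 processed signal. A probe entered if well above background on all 4 arrays of at least 1 group (19458 probes), and a gene was its probe with the highest mean over all arrays (15651 genes). Names came from RefSeq (GRCr8) by accession for 21060 probes and by symbol for 7093, and 17345 kept the name in the files. Probe positions are those of the files on rn4, which no genome was held to check. Probe sequences are those of the files and promoters those of RefSeq.

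P200 was compared with P20 by limma 3.58.1 (R 4.3.3, lmFit and eBayes, no covariate, two-sided, Benjamini-Hochberg over all genes or all probes, threshold 0.05). Pairs of chains were compared by an exact permutation test of 70 splits (scipy 1.17.1), adjusted over the pairs tested. The fit was tested on simulated data. Precision is limited by the number of arrays. Replicate numbers are shared by the groups, but deviations of arrays with the same scanner file number correlated at 0.025, 0.134, -0.003 and 0.281. The numbers were not taken as pairs. Pairing by the differing P200 numbers of the series matrix was not examined. Alternatives were other centring, background correction, filters and probe rules, the series matrix, slide row, replicate block and leaving out each array. All members were named; of each further list, up to 2 largest rises and 2 largest falls past the test, or else the smallest p. The members, lists and tests were chosen with earlier results of these data known.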

Additional observations from a re-analysis of the deposited data

Results flagged for a closer look

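Of 32 groups of 4 arrays examined for the member probes, 2 held an array far from the other three by Dixon's criterion, and chance gives about 1 in 20. Icam1 was at 3.59 in P200 replicate 1, where the other P200 arrays were at 4.46 to 4.56 (ratio 0.898). The second Itga6 probe was at -0.92 in P200 replicate 1, where the other P200 arrays were at -1.20 to -1.17 (ratio 0.866).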

How the results depend on the processing

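The main settings called 1804 of all genes and 2 members. Centring on the array median called 653 of the same 15651 genes (286 higher, 367 lower) and 1 member, Itgam. With no background filter 812 of 36120 genes tested were called (389 higher, 423 lower). The cause was not tested. Leaving out 1 array gave 1269 to 1694 genes and 2 to 3 members. The replicate block called 1503 genes (785 higher, 718 lower) and changed no member call, but Cd47, Parvg, Cd9, Cd81 and Cd82 lost theirs, and 3 of 8 arrays correlated best with their own number in the other group. Itgam was called in 18 of 19 settings, lost with the mean of probes (-0.62), and Itga6 in 18 of 19, lost with the array median (0.50). With the mean of probes the called members were Itga6 and Cd44. With the mean of probes the shift of Itgam minus Itgb2 shrank to -0.40, while Itga6 minus Itgb1 (0.59) and Itga4 minus Itga6 (-0.63) grew and missed the threshold by their adjustment alone (exact permutation, adjusted p = 0.0571). Leaving out 1 array gave -0.60 to -0.50, 0.47 to 0.59 and -0.61 to -0.50 for these pairs, with 3 against 4 arrays too few to pass. Itga4 minus Itgb1 turned to 0.02 with the series matrix and ran from -0.09 to 0.00 without 1 array. Itgb1 turned to -0.02 (array median), -0.00 (mean of probes), -0.03 (slide row), -0.05 (series matrix) and -0.03 to -0.01 without P200 replicate 2 or 3 or P20 replicate 3. Itga4 ran from -0.06 to 0.02 without 1 array, above 0 without P20 replicate 1, and the second Itgb1 probe turned to 0.06 without P200 replicate 1. Without the filter another Src probe represented the gene, at 0.21. Signal over background limits Itgal and Src.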
